A study of Arabidopsis thaliana with 38 samples.

Results

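Nuclei of the future vascular tissue were compared with nuclei of the future ground tissue in early globular embryos of Arabidopsis thaliana, across all 27826 loci of a microarray. The comparison uses 8 of the 38 arrays of an atlas of embryonic cell types: the 4 arrays of vascular nuclei (VSC_EG) and the 4 arrays of ground tissue nuclei (GSC_EG), both from embryos taken 81 h after hand pollination. Each array holds RNA from 1 biological replicate, described by the submitters as pooled, of nuclei isolated with INTACT, a system of 2 transgenes in which a tag on the nuclear envelope lets the nuclei of chosen cells be captured on beads. The promoters that drive the tag, the accession of the plants and the number of embryos per replicate are not stated in the labels, which also name no mutant and no treatment for any group. Whole-embryo nuclei of the same age (EMB_EG, 4 arrays) and suspensor nuclei (SUS_EG, 3) serve as reference levels, and the late globular groups at 100 h (VSC_LG, 4 arrays, and GSC_LG, 3) serve to ask whether the difference between the tissues stayed the same.

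The vascular and the ground tissue arise from a shared set of inner cells of the lower embryo, and a division at the early globular stage sets the inner vascular cells apart from the outer ground tissue cells. In the vascular cells the auxin response factor MP turns on TMO5, a bHLH factor that acts with its partner LHW to drive periclinal divisions through cytokinin. SHR, a GRAS factor, is transcribed in the vascular cells, and its protein moves outward into the ground tissue, where it acts with SCR and the zinc finger factors JKD, MGP and NUC to set endodermal identity. A contrast of the tissues at this stage therefore asks which transcripts differ soon after both are born.

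Values are RMA intensities on the log2 scale, so a difference of 1 is a factor of 2, and levels are compared only for the same locus. A locus was called where limma's two-sided p, adjusted by Benjamini-Hochberg over all 27826 loci, was under 0.05 in a fit of all 38 arrays. The spread between replicates is large here. Across loci, pairs of VSC_EG arrays correlated with r from 0.653 to 0.845 (median 0.741), pairs of GSC_EG arrays with r from 0.789 to 0.871 (median 0.827), and pairs of a VSC_EG and a GSC_EG array with r from 0.666 to 0.816 (median 0.76). The vascular arrays were thus no closer to each other than to ground tissue arrays. Array medians lay between 2.49 and 2.65 over these 8 arrays, and the interquartile range ran from 1.24 to 1.65 in VSC_EG and from 1.59 to 2.01 in GSC_EG.

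The genes that define the tissues did not separate these nuclei at the early globular stage. None of the 24 genes of a vascular list and none of the 11 genes of a ground tissue list was called by limma, and 1 of each had an unadjusted p under 0.05, beside 13.9% of all loci. The median difference, vascular minus ground tissue, was 0.0282 for the vascular list and 0.0818 for the ground tissue list, beside 0.0217 over all loci. Averaged over its genes, the vascular list stood between 2.96 and 3.16 on the VSC_EG arrays, between 2.8 and 3.59 on the GSC_EG arrays and between 2.92 and 2.98 on the EMB_EG arrays. The ground tissue list stood between 2.36 and 2.6, between 2.28 and 2.55, and between 2.57 and 2.87. In pooled nuclei, fewer nuclei of a type and less RNA per nucleus cannot be told apart. The names vascular and ground tissue are used below as the groups' labels, although these markers did not set the groups apart.

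SHR (AT4G37650) read 5.13, 4.46, 6.03 and 4.99 on the VSC_EG arrays and 4.13, 4.51, 3.45 and 5.35 on the GSC_EG arrays. Its mean was higher in vascular nuclei by 0.79 (SE 0.45, limma adjusted p = 0.443), but GSC_EG 4 lay above 3 of the 4 vascular arrays. TMO5 (AT3G25710) read 3.85, 3.95, 3.76 and 2.45 against 3.25, 2.37, 3.94 and 3.07, a difference of 0.34 (SE 0.42, adjusted p = 0.789). LHW (AT2G27230) differed by -0.24, the cytokinin receptor gene WOL (AT2G01830) by 0.33, the HD-ZIP factor gene ATHB-8 (AT4G32880) by 0.23, and the procambial receptor kinase gene PXY (AT5G61480) by 0.32, each with overlapping arrays.

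MP (AT1G19850) read 4.48, 4.29, 5.72 and 5.10 on the VSC_EG arrays and 6.14, 4.75, 6.74 and 5.92 on the GSC_EG arrays, against a mean of 6.33 ± 1.03 (SD, n = 4) in whole embryos. The difference of -0.99 (SE 0.55, limma adjusted p = 0.432) had a 95% interval from -2.10 to 0.13. Its higher mean was in the nuclei labelled ground tissue, and the arrays of the groups overlapped. The class III HD-ZIP factor gene REV (AT5G60690) was the vascular gene with the unadjusted p under 0.05, with a difference of -0.95 (adjusted p = 0.204).

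SCR (AT3G54220) read 2.66, 3.17, 3.06 and 1.94 on the VSC_EG arrays and 3.31, 2.47, 2.98 and 3.72 on the GSC_EG arrays. The groups overlapped, and the difference of -0.41 (SE 0.42, limma adjusted p = 0.723) had a 95% interval from -1.26 to 0.44. JKD (AT5G03150) differed by -0.05, MGP (AT1G03840) by -0.33 and NUC (AT5G44160) by 0.47, with overlapping arrays. The ground tissue gene with the unadjusted p under 0.05 was AT3G45260, which encodes another zinc finger factor of this family and stood 0.86 higher in vascular nuclei (adjusted p = 0.217). All 8 values of MGP lay below 2.49, the lowest of the 8 array medians, so an uncalled difference says little there.

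**Figure D1:**
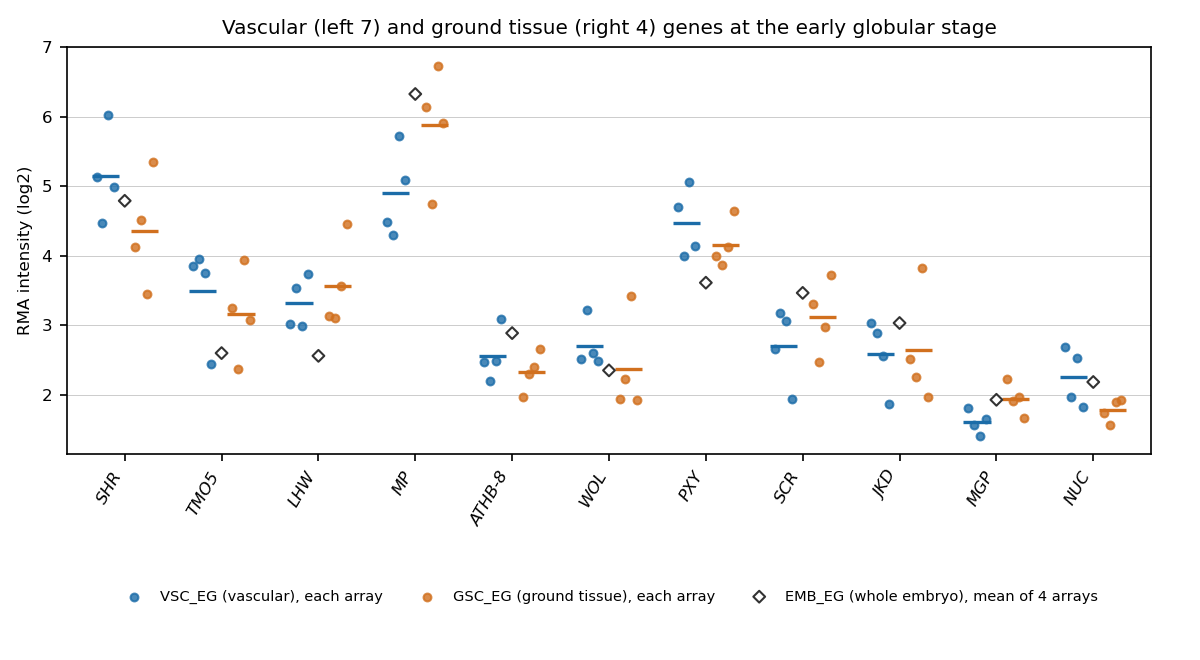
RMA intensity (log2, vertical axis) of 7 vascular and 4 ground tissue genes (horizontal axis) on each of the 4 VSC_EG and 4 GSC_EG arrays (points), with group means (bars) and the EMB_EG mean (diamonds). The points of both tissues overlap for each of the 11 genes, SHR and SCR included.

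Over all loci, 206 were called between vascular and ground tissue nuclei, or 0.74% of those tested. Of these, 144 (0.518%) were higher in vascular nuclei and 62 (0.223%) were lower. The rises ranged from 0.98 to 3.44 with a median of 1.62, and the falls in size from 0.94 to 4.99 with a median of 1.74. When each array was centred on its median, 219 loci were called, 122 higher and 97 lower, so the balance of directions depends on scaling. The count rests on single arrays. It was 10 without VSC_EG 2 (4 higher and 6 lower), 38 without VSC_EG 3, 43, 135 and 48 without GSC_EG 1, 2 or 3, and 566 and 720 without VSC_EG 1 or 4, and only 5 loci were called in a fit of the 8 arrays alone. HSP70 and CRC, described below, were the only loci with a symbol among the 10, and HSP70 was the only such locus among the 5. The other called genes with a symbol named below lost their call in both of these settings. Both the 206 and the 5 hold AT2G07757 and ATMG00230, which carry identical values on every array and so count as 1 measurement.

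The loci that were higher and those that were lower differed in how bright they are. Of the 144 rises, 128 had a GSC_EG mean below 2.49, the lowest median of these 8 arrays. The median level of the rises was 3.34 in vascular nuclei, 1.68 in ground tissue nuclei and 2.02 in whole embryos. VSC_EG 2 was the highest of the 4 vascular arrays for 93 of the 144. For the 62 falls the median level was 2.95 in vascular nuclei, 4.75 in ground tissue nuclei and 3.67 in whole embryos, and 39 lay in the brightest of 4 equal classes of loci by mean level. Over all loci the median difference moved from 0.157 in the dimmest class through 0.125 and -0.0338 to -0.267 in the brightest, along with the wider spread of the GSC_EG arrays. With array spread as a covariate the dimmest and brightest classes stood at 0.00534 and -0.0837 and 68 loci were called, and with quantile normalization they stood at 0.0546 and -0.104 and 45 loci were called.

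**Figure D2:**
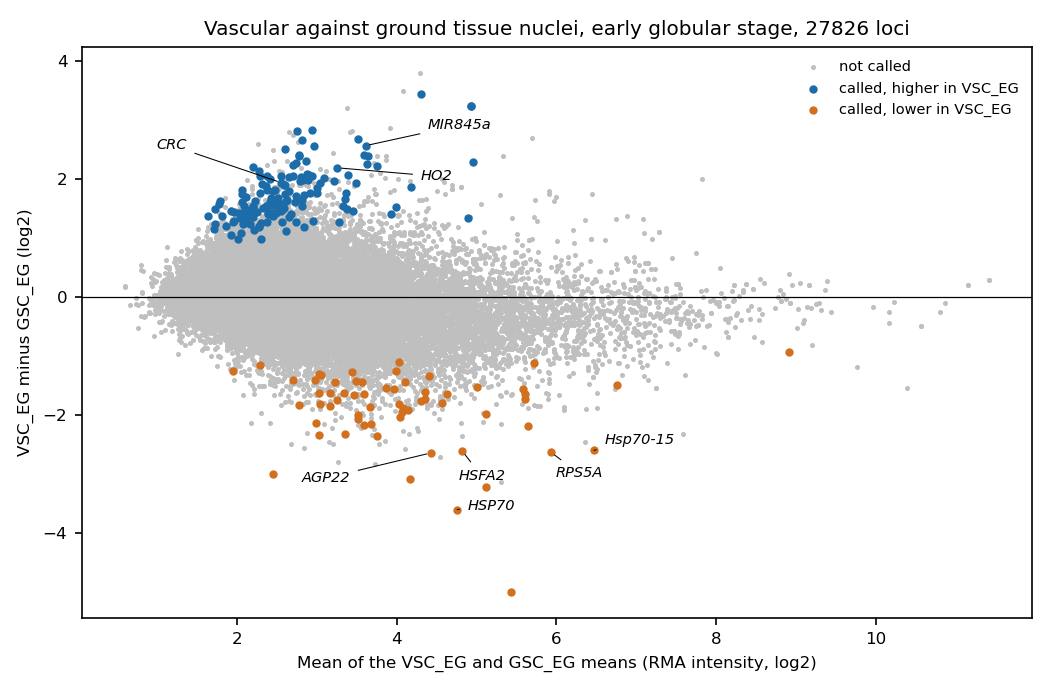
Difference between vascular and ground tissue nuclei (VSC_EG minus GSC_EG, log2, vertical axis) against the mean level of each of 27826 loci (log2, horizontal axis). The 144 called rises (blue) gather at low levels, while the 62 called falls (orange), HSP70 among them, spread to high levels.

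The locus of smallest p in this contrast was a heat shock gene. HSP70 (AT3G12580), for a cytosolic chaperone induced by heat, read 2.73, 3.11, 3.14 and 2.86 on the VSC_EG arrays and 7.15, 7.34, 6.60 and 5.15 on the GSC_EG arrays. Every vascular array lay below every ground tissue array. The mean was 2.96 ± 0.20 (SD, n = 4) against 6.56 ± 0.99 (n = 4), a 12.1-fold difference (log2 difference -3.60, SE 0.51, limma adjusted p = 0.000915). This call held in a fit of the 8 arrays alone and without any 1 of them.

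The other groups show which side of this difference is the high one. HSP70 stood at 3.19 ± 0.65 (n = 4) in early globular whole embryos and at 3.64 ± 0.59 (n = 4) in late globular ones. It stood at 7.22 ± 0.41 (n = 3) in the suspensor at 81 h, and at 6.25 ± 0.65 (n = 4) and 5.51 ± 0.57 (n = 3) in vascular and ground tissue nuclei at 100 h. The vascular nuclei at 81 h thus had the low level of whole embryos. The suspensor nuclei at 81 h, the ground tissue nuclei and the late vascular nuclei had a higher level. Nuclei of the inner lower tier of 16-cell embryos at 72 h stood at 4.25 ± 1.74 (SD, n = 3), a wide spread. The labels name no heat treatment for any of them, and whether isolation of the nuclei plays a part was not tested.

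Of the 22 genes of a heat shock list, 4 were lower in vascular nuclei and 18 did not pass, beside 0.223% of all loci called lower. The list's median difference was -0.772, with 15 of 22 below 0. An unadjusted p under 0.05 was reached by 11, beside 13.9% of all loci. The number called lower was 1 without VSC_EG 2 or in a fit of the 8 arrays alone and 2 without VSC_EG 3 or GSC_EG 1 or 3, while the median was -0.622 without VSC_EG 2. Averaged over the 22 genes, the arrays lay between 3.24 and 3.96 in VSC_EG, between 3.84 and 5.02 in GSC_EG and between 2.96 and 3.37 in EMB_EG.

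HSFA2 (AT2G26150), a transcription factor that sustains the heat response, read 5.05, 2.54, 3.18 and 3.30 on the VSC_EG arrays and 6.17, 6.96, 6.82 and 4.58 on the GSC_EG arrays. It was lower by 2.61 (SE 0.48, limma adjusted p = 0.00888), although VSC_EG 1 lay above GSC_EG 4. HSP81-2 (AT5G56030), a cytosolic HSP90 chaperone, read 4.79, 5.12, 4.48 and 4.78 against 6.53, 6.06, 6.96 and 6.16. It was lower by 1.64 (SE 0.39, adjusted p = 0.0365) with separate groups, as was AT3G09440, a cytosolic Hsp70 chaperone gene, by 2.19 (SE 0.53, adjusted p = 0.0404).

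Further heat shock genes stood in the same direction without passing. MBF1C (AT3G24500), a coactivator of the heat response, read 5.82, 5.28, 6.06 and 5.10 on the VSC_EG arrays and 7.92, 6.99, 7.89 and 6.98 on the GSC_EG arrays, with a difference of -1.88 (limma adjusted p = 0.103). HSP90.1 (AT5G52640), the heat-induced HSP90 chaperone, differed by -1.88 (adjusted p = 0.0895) and the disaggregase gene HSP101 (AT1G74310) by -1.64 (adjusted p = 0.194). GSC_EG 4 was the lowest of its group for HSP70, HSFA2, HSP90.1, HSP101 and AT3G09440. The small heat shock protein gene AT1G53540 stood at 0.82 and HSP17.6A (AT5G12030) at 0.10, so the list did not move as a whole. Outside the list and the rule for named genes, the small heat shock protein genes AT1G54050 and AT1G59860 were called lower, with separate arrays. They are named here because of their values, lower by 3.07 (limma adjusted p = 0.015) and by 1.94 (adjusted p = 0.0352). Without VSC_EG 2, AT1G54050 was still called and AT1G59860 was not.

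**Figure D3:**
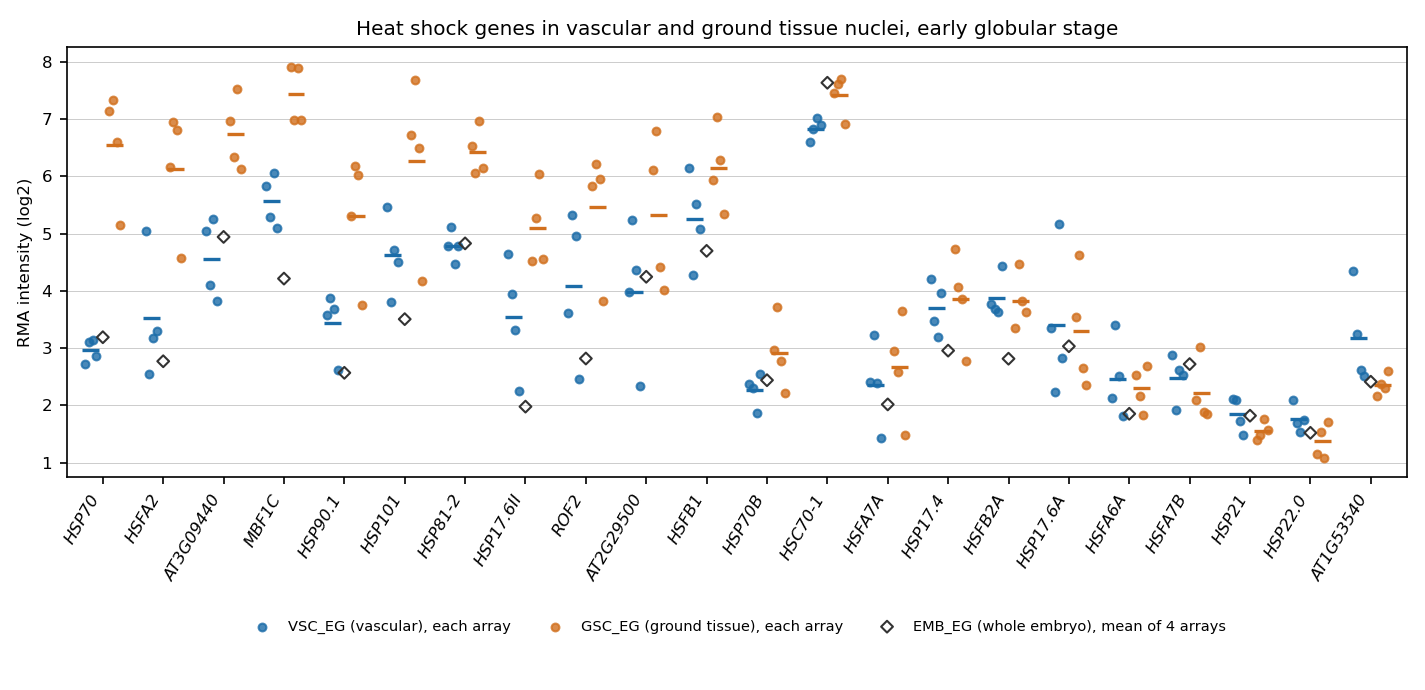
RMA intensity (log2, vertical axis) of the 22 heat shock genes (horizontal axis, ordered by difference) on each VSC_EG and GSC_EG array (points), with group means (bars) and the EMB_EG mean (diamonds). HSP70 at the far left has no overlap between its arrays at 2.73 to 3.14 and at 5.15 to 7.34, and the genes at the right show no separation.

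A pair of neighbouring genes of large Hsp70-family proteins was lower as well. Hsp70-15 (AT1G79920) read 5.03, 3.82, 6.95 and 4.89 on the VSC_EG arrays and 7.18, 7.07, 8.75 and 8.06 on the GSC_EG arrays, and HSP91 (AT1G79930) read 3.73, 2.05, 3.78 and 3.02 against 5.29, 4.35, 5.33 and 5.09. Hsp70-15 was lower by 2.59 (SE 0.56, limma adjusted p = 0.0243) and HSP91 by 1.87 (SE 0.40, adjusted p = 0.0226), each with separate groups. These genes are close relatives, and whether their probes share signal was not tested. Of the 52 loci whose RefSeq symbol or synonyms name them as heat shock genes, a grouping made after the values were seen, 5 were called lower, beside 0.223% of all loci, and 37 lay below 0, with a median of -0.523.

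Among the other falls were genes of the cell wall, of protein turnover and of metabolism. AGP22 (AT5G53250), which encodes an arabinogalactan peptide of the cell surface, read 3.71, 3.00, 3.25 and 2.46 on the VSC_EG arrays and 5.88, 7.05, 4.52 and 5.54 on the GSC_EG arrays. It was lower by 2.64 (SE 0.52, limma adjusted p = 0.015), with separate groups and a whole-embryo mean of 5.02 ± 0.51 (n = 4). PME5 (AT5G47500), a pectin methylesterase gene, read 2.30, 1.98, 2.96 and 2.78 against 5.32, 3.92, 5.67 and 3.76, lower by 2.16 (SE 0.45). The proteasome subunit gene PBG1 (AT1G56450) was lower by 2.02, PPC3 (AT3G14940), for a phosphoenolpyruvate carboxylase, by 2.14, NTRA (AT2G17420), for a thioredoxin reductase, by 1.84, CXE16 (AT5G14310), for a carboxylesterase, by 2.14, and ATB2 (AT1G60710), for an aldo-keto reductase, by 1.91. Arrays of these 7 genes did not overlap between the groups, but this was a condition for naming them and adds no support. Of all loci, 812 (2.92%) had such arrays in this direction.

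TMO7 (AT1G74500) is a small bHLH protein gene activated by MP, whose product moves toward the root founder cell. It was the only called member of the root meristem list of 9 genes, beside 0.223% of all loci called lower. It read 2.91, 2.48, 3.06 and 2.46 on the VSC_EG arrays and 5.91, 3.86, 3.66 and 4.95 on the GSC_EG arrays. It was lower in vascular nuclei by 1.87 (SE 0.44, limma adjusted p = 0.0361), with a whole-embryo mean of 3.39 ± 0.84 (n = 4). The call was not kept in 7 of 15 other settings, in all of which its direction held, nor with a 2-fold threshold.

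A few genes of ribosomes and of the nucleolus were lower too. RPS5A (AT3G11940), a gene for a cytosolic ribosomal protein active in dividing cells, read 4.15, 3.95, 4.38 and 5.99 on the VSC_EG arrays and 8.03, 7.11, 5.52 and 8.34 on the GSC_EG arrays. It was lower by 2.63 (SE 0.61, limma adjusted p = 0.0344), although VSC_EG 4 lay above GSC_EG 3, and whole embryos stood at 7.80 ± 0.57 (n = 4). It was the called one of a list of 8 ribosomal protein genes, beside 0.223% of all loci called lower. All 8 lay below 0 with a median of -0.625. In the brightest class of all loci, 4807 of 6957 lay below 0 with a median of -0.267. The nucleolin gene NUC-L1 (AT1G48920) read 4.17, 4.92, 5.25 and 4.59 against 5.84, 6.15, 7.15 and 6.74 and was lower by 1.73 (SE 0.42, adjusted p = 0.0381). Of the 67 loci named as ribosomal proteins in RefSeq, grouped after the values were seen, 2 were called lower, beside 0.223% of all loci, and 65 did not pass. Their median was -0.391 with 53 below 0, or -0.231 with 43 below 0 under quantile normalization, in a direction shared by the brightest class of all loci. Of the 24 loci grouped as nucleolar in the same way, 2 were called lower, beside 0.223% of all loci, and 22 did not pass. Of the 24, 14 lay below 0, with a median of -0.0903.

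The largest fall of all was AT1G30974, which the gene table lists without a symbol and which is named here because of its values. It read 2.15, 3.95, 3.35 and 2.29 on the VSC_EG arrays and 8.99, 7.87, 7.14 and 7.69 on the GSC_EG arrays. The difference was -4.99 (SE 0.90, limma adjusted p = 0.00888) and the whole-embryo arrays varied widely (4.26 ± 2.70, n = 4). At the late globular stage it was lower by 5.75 (adjusted p = 0.00303). With HSP70 it was 1 of the 2 loci whose call at 81 h was kept in all of 14 settings (6 of the fit and 8 that leave out 1 array). The 14 do not include the filter on dim loci, or the replicate block and 2-fold threshold, where no locus was called. Without VSC_EG 2 and 3 together, AT1G30974 lost its call and HSP70 kept it.

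Rises were mostly dim loci with no symbol: 29 of 144 (20.1%) had one, beside 25 of 62 falls (40.3%) and 37.9% of all loci. CRC (AT1G69180), a YABBY transcription factor gene known for its role in carpels and nectaries, read 2.83, 3.83, 3.93 and 3.50 on the VSC_EG arrays and 1.54, 1.73, 1.46 and 1.63 on the GSC_EG arrays. The groups were separate, and the rise was 1.93 (SE 0.29, limma adjusted p = 0.00123), with 2.41 ± 0.19 (n = 4) in whole embryos. The call was kept without any 1 of the 8 arrays and lost in a fit of those arrays alone.

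ZPR4 (AT2G36307), which encodes a small zipper protein of a family that binds and inhibits class III HD-ZIP factors, read 3.36, 4.48, 3.44 and 3.84 on the VSC_EG arrays and 1.18, 2.08, 2.09 and 1.90 on the GSC_EG arrays. It was higher by 1.97 (SE 0.35, limma adjusted p = 0.00861) with separate groups, while the class III HD-ZIP genes themselves were not called. HO2 (AT2G26550), a heme oxygenase family gene, read 4.97, 5.02, 4.01 and 3.41 against 2.67, 1.90, 1.84 and 2.26 and was higher by 2.19 (SE 0.45, adjusted p = 0.0179). NRPB8A (AT1G54250), for a subunit of RNA polymerases, read 3.45, 3.22, 2.95 and 3.50 against 2.19, 1.26, 1.74 and 1.46 and was higher by 1.62 (SE 0.37). Separate groups were a condition for naming these genes, so their separation adds no support. Of all loci, 976 (3.51%) were separate in this direction.

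The remaining rises of this rule were chosen under the same condition of separate groups. MIR845a (AT4G23387), a microRNA gene, read 3.99, 6.71, 4.77 and 4.11 on the VSC_EG arrays and 2.51, 2.90, 1.85 and 2.06 on the GSC_EG arrays, a rise of 2.56 (SE 0.60, limma adjusted p = 0.0352). AIG2L (AT5G39720) read 2.70, 4.97, 5.15 and 1.86 against 1.62, 1.30, 1.79 and 1.86, so that VSC_EG 2 and 3 carried its rise of 2.03 and VSC_EG 4 lay level with GSC_EG 4. The receptor-like protein gene RLP20 (AT2G25440) was higher by 2.04, with VSC_EG 2 at 5.44 and the others from 2.68 to 3.85. SCRL26 (AT4G22105), of a family of small cysteine-rich secreted proteins, was higher by 2.04, TI2 (AT2G43520), a trypsin inhibitor gene, by 1.55, TPPC (AT1G22210), a trehalose-phosphate phosphatase gene, by 1.52, NUDT9 (AT3G46200), a nudix hydrolase gene, by 1.50, and the MADS-box gene AGL98 (AT5G39810) by 1.42.

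**Figure D4:**
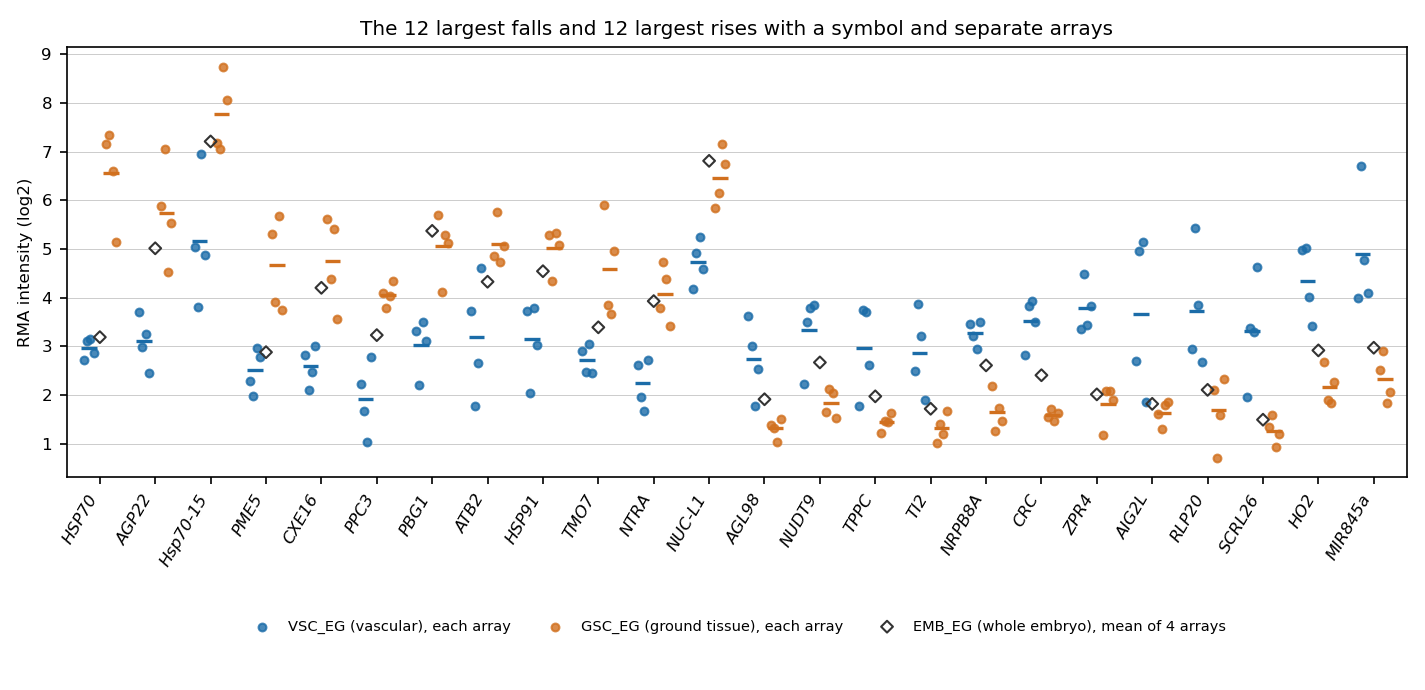
RMA intensity (log2, vertical axis) of the 12 largest falls (left) and 12 largest rises (right) among called genes with a symbol and no overlap between arrays, on each VSC_EG and GSC_EG array (points), with group means (bars) and the EMB_EG mean (diamonds). The GSC_EG arrays of the rises lie between 0.71 and 2.90, near the floor of the arrays, while those of the falls lie between 3.42 and 8.75.

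The largest rise was SESA4 (AT4G27170), a seed storage albumin gene, named here because of its value. It read 6.56, 6.83, 4.13 and 6.58 on the VSC_EG arrays and 2.56, 1.80, 1.77 and 4.21 on the GSC_EG arrays, a difference of 3.44 (SE 0.78, limma adjusted p = 0.0333) with an overlap of VSC_EG 3 and GSC_EG 4. Its level in whole embryos was 4.95 ± 0.59 (n = 4). None of the 11 genes of the seed maturation list was called, and 1 had an unadjusted p under 0.05: the related albumin gene SESA1 (AT4G27140), at 1.09 (adjusted p = 0.186).

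The auxin, cytokinin and cell cycle lists held no called gene. Of 28 genes of auxin response and transport 5 had an unadjusted p under 0.05, near the 13.9% of all loci, and the median difference was -0.0759. LAX2 (AT2G21050), an auxin influx carrier gene of vascular strands, read 1.98, 1.92, 2.10 and 2.47 on the VSC_EG arrays and 2.93, 2.69, 3.91 and 3.12 on the GSC_EG arrays, a difference of -1.05 (limma adjusted p = 0.272). The repressor gene IAA13 (AT2G33310) stood at -0.88 (adjusted p = 0.32) and ARF10 (AT2G28350) at 1.02 (adjusted p = 0.208). Of 14 cytokinin genes none had an unadjusted p under 0.05, and their median was 0.102.

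Among 15 S phase genes 12 lay below 0 with a median of -0.221 (10 with a median of -0.0431 when array spread was a covariate), and 1 had an unadjusted p under 0.05. That gene was RNR1 (AT2G21790), for the large subunit of ribonucleotide reductase, which read 2.85, 2.84, 2.68 and 3.10 on the VSC_EG arrays and 3.78, 3.99, 4.43 and 4.50 on the GSC_EG arrays, separate groups with a difference of -1.30 (limma adjusted p = 0.0895). Of 8 D-type cyclin genes none was called, 5 lay above 0 and the median was 0.206. CYCD3;2 (AT5G67260) differed by -1.28 (adjusted p = 0.17) with separate arrays, CYCD3;1 by -1.35 (adjusted p = 0.199) and CYCD4;2 by 0.81 (adjusted p = 0.173). The list of 16 G2 and M phase genes had a median of -0.176 and 1 unadjusted p under 0.05.

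Lists that often move with handling or with other tissues were read beside these results. Early response genes had a median of -0.416 (12 of 14 below 0, none called) and jasmonate genes one of -0.484 (12 of 15 below 0, none called). Of all 27826 loci, 13386 lay below 0. In the brightest class 4807 of 6957 did, with a median of -0.267. The part of brightness in the medians of these lists was not tested. The early response genes with an unadjusted p under 0.05 went both ways, with ERF6 at -1.61, ERF1A at -0.74 and PBP1 at 1.66, and the single such jasmonate gene, JAZ7, stood at 1.1, against the direction of its list. Without VSC_EG 2 the medians of the early response and jasmonate lists were -0.0969 and -0.205, and the jasmonate median was -0.275 with quantile normalization and -0.151 with array spread as a covariate. The early response list stood at 4.18 to 4.98 on VSC_EG arrays, 4.74 to 5.29 on GSC_EG arrays and only 3.35 to 3.96 on EMB_EG arrays, so it was higher on the arrays of both tissues than on those of whole embryos. Genes of ER bodies and their lectins, a system of defence in epidermis and roots, had a median of -1.19 (6 of 7 below 0, none called). Of these 7 genes, 3 had an unadjusted p under 0.05, beside 13.9% of all loci. Their leading member PYK10 (AT3G09260), a beta-glucosidase gene, read 4.28, 3.52, 3.45 and 4.37 on the VSC_EG arrays, 7.02, 6.68, 4.55 and 4.54 on the GSC_EG arrays and 8.20 ± 0.47 (n = 4) in whole embryos (difference -1.79, limma adjusted p = 0.1).

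Markers of tissues around the embryo, and of its other parts, overlapped between the groups. The 15 seed coat genes averaged 4.75 to 5.42 on VSC_EG arrays, 4.83 to 5.64 on GSC_EG arrays and 4.88 to 5.67 on EMB_EG arrays, with a median difference of -0.0887. The brightest, the flavonoid genes TT4 (AT5G13930) and LDOX (AT4G22880), stood at 8.36 ± 0.41 and 8.10 ± 0.07 in VSC_EG and at 8.51 ± 0.43 and 8.02 ± 0.72 in GSC_EG (n = 4 each). None of the 9 endosperm, 11 pollen, 6 suspensor, 11 protoderm or 13 shoot apex genes was called. Of them, 1, 0, 2, 0 and 0 had an unadjusted p under 0.05, beside 13.9% of all loci. Seed coat transcripts were thus present on the arrays of both tissues, and their part in the uncalled tissue markers was not tested.

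At the late globular stage 344 loci (1.24%) were called between vascular and ground tissue nuclei, 90 higher and 254 lower (0.323% and 0.913%). That count was 164, 25 or 118 without GSC_LG 1, 2 or 3 and 120 or 132 without VSC_LG 2 or 3, and it split into 69 higher and 416 lower with centred arrays and into 60 higher and 84 lower with quantile normalization. Of the 206 early calls, 5 were also called in the same direction then (2.43% of the early and 1.45% of the late calls): AT1G30974, emb2394 (AT1G05190), NOP56 (AT1G56110), AT1G73530 and AT5G23900, all lower. A further 2 loci, AT2G07757 and ATMG00230, were called in opposite directions and carry identical values on every array, so they count as 1 measurement. By sign alone, 125 of the 144 early rises lay above 0 at 100 h as well, and 47 of the 62 early falls lay below 0. The dimmest and second classes, with 58 and 56 of the 144 rises, had late medians of 0.306 and 0.253 over all their loci. The brightest class, with 39 of the 62 falls, had one of -0.364. These medians have the same directions as at 81 h, so the shared signs cannot be told apart from this trend with level. Across all loci the early and late differences correlated with Pearson's r = 0.242 and Spearman's rho = 0.258, where loci are not independent replicates. The late difference had a median of 0.112 over all loci, which became 0.00508 when arrays were centred.

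SCR was called only at the later stage: it stood at 3.13 ± 0.77 (n = 4) in VSC_LG and at 5.53 ± 0.39 (n = 3) in GSC_LG, lower in vascular nuclei by 2.40 (SE 0.45, limma adjusted p = 0.00703). The test of the change between stages gave 1.99 (SE 0.61, adjusted p = 0.244), so the early and late SCR differences were not shown to differ. CYCD3;2 was likewise called at 100 h at -2.27 (adjusted p = 0.0191) and not at 81 h, with a stage difference of 1.00 (adjusted p = 0.648).

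The change between the stages was called for 19 loci (0.0683%), 15 with a higher (0.0539%) and 4 with a lower (0.0144%) difference at 81 h than at 100 h. The 19 include both AT2G07757 and ATMG00230, which carry identical values. The count was 10 or 11 without GSC_EG 1 or 2, 12 or 5 without VSC_EG 2 or 3, 31 without VSC_EG 1, 12 or 8 without GSC_LG 1 or 2, and 12 or 5 without VSC_LG 2 or 3. FIL (AT2G45190), a YABBY factor gene of the abaxial side of lateral organs, differed by 0.39 at 81 h and by -3.66 at 100 h, when ground tissue nuclei stood at 6.76 ± 0.52 (n = 3). The change was 4.05 (SE 0.59, limma adjusted p = 0.00208). HSP70 went the other way, from -3.60 to 0.74, a change of -4.34 (SE 0.74, adjusted p = 0.0106).

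PIN6 (AT1G77110), an auxin transporter gene, moved from 0.56 to -1.92 (limma adjusted p = 0.0106 for the change) and the mitotic cyclin gene CYCB1;3 (AT3G11520) from 0.48 to -2.15 (adjusted p = 0.0409). The thymidylate synthase gene THY-2 (AT4G34570) moved from 0.76 to -2.37 (adjusted p = 0.0253), BSM (AT4G02990), for an organelle protein needed in embryos, from 0.51 to -1.94 (adjusted p = 0.0173), and NUDT9 from 1.50 to -0.88 (adjusted p = 0.0173). For these genes other than HSP70 and NUDT9 the early difference was not called, and the late level of the ground tissue nuclei was the high one.

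**Figure D5:**
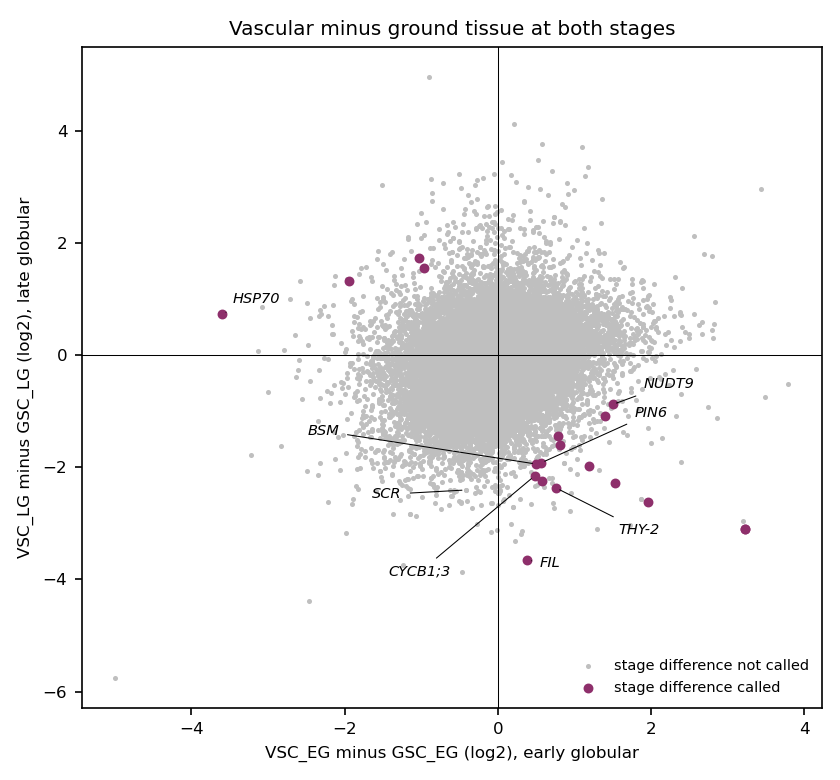
Vascular minus ground tissue difference at 100 h (log2, vertical axis) against that at 81 h (log2, horizontal axis) for 27826 loci, with the 19 loci whose change between stages was called in purple. HSP70 lies at -3.60 and 0.74 and FIL at 0.39 and -3.66, while SCR at -0.41 and -2.40 is not among the called.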

How the data were processed

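The deposited values are linear microarray intensity values per locus, made by the authors with RMA (background correction, normalization between arrays, summary per probe set), per the submitters' processing notes; no source used here gives the version, the probe set definition or the genome build. RMA removes overall differences in RNA amount, no detection calls were used, and dim loci are compressed toward 0. The number of arrays limits precision.

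Values were taken to log2 with no constant added. All 38 arrays entered 1 limma fit (limma 3.58.1, R 4.3.3) of 11 group means with eBayes (27 residual and 6.79 prior degrees of freedom); contrasts were VSC_EG minus GSC_EG, VSC_LG minus GSC_LG and their difference. The threshold for a call was 0.05 for p adjusted by Benjamini-Hochberg over 27826 loci. Replicates are the labels' biological replicates. No pair of arrays was a duplicate. Samples with the same replicate number were checked for pairing: their deviations from the group means correlated with r of 0.00937, 0.0151, 0.113 and -0.0101. These weak correlations gave no ground for a paired fit, but they cannot show whether samples of the same number were prepared together.

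The members and the 24 gene lists (325 genes, from textbook knowledge) were chosen with earlier results of these data known, and the groupings by RefSeq name after the values of this comparison were seen. Named genes are 12 rises and 12 falls, taken by size from called loci with a symbol and separate arrays, fixed tissue genes, up to 4 genes per list by smallest p, 6 loci with a symbol by smallest p for the stage change, and the brightest genes of surrounding tissues; not all are printed, and 1 fixed tissue gene is not reported here. Symbols come from RefSeq TAIR10.1, which holds 27241 of the loci, 10556 with a symbol. The analysis was tested on simulated data. Alternatives were quantile normalization, median centring, a filter on dim loci, array weights, an intensity trend, only the arrays compared, a 2-fold threshold, a replicate block, array spread as a covariate and leaving out arrays. Plots used matplotlib.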

Additional observations from a re-analysis of the deposited data

Results flagged for a closer look

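Within the 4 arrays of a group, 1 array stood apart from the other 3 by Dixon's criterion in 8 of 258 sets of values of named genes (3.1%), where chance gives about 1 in 20. In VSC_EG these were TMO5 on array 4 at 2.45, BSM on array 4 at 1.93, WOL on array 2 at 3.22 and AGO1, an ARGONAUTE gene of small RNA silencing, on array 2 at 3.40. In GSC_EG they were GRP9, a glycine-rich protein gene, on array 1 at 5.99, ARF10 on array 2 at 2.46, ARF2, an auxin response factor gene, on array 4 at 6.06 and CKX1, a cytokinin oxidase gene, on array 2 at 2.20. None of these genes was called at the early globular stage. Arrays are named by their number in the labels.

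The vascular minus ground tissue difference changed between 81 h and 100 h, by limma's test of that change, for 7 named genes. The change (early minus late) was 4.05 for FIL, 3.13 for THY-2, 2.63 for CYCB1;3, 2.48 for PIN6, 2.45 for BSM, 2.38 for NUDT9 and -4.34 for HSP70. Of these only HSP70 was lower in vascular nuclei at 81 h. Each stage difference rests on 4 and 4 arrays at 81 h and 4 and 3 arrays at 100 h.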

How the results depend on the processing

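The 206 early calls depended on the setting. They became 68 with array spread as a covariate, 45 with quantile normalization, 110 without dim loci, 5 with only the arrays compared, 1019 with array weights, 6 without VSC_EG 2 and 3 together, and 10 to 720 without 1 array each. With a 2-fold threshold limma called 0 (163 at an unadjusted p under 0.05), and with the replicate block 0 (3446 at an unadjusted p under 0.05). The 10 loci called without VSC_EG 2 were all among the 206. No called locus turned its sign in any of 14 settings, and 28 of the 206 were kept in more than 10 of them.

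The 344 late calls became 17, 144, 895, 1 and 0 with array spread, quantile normalization, array weights, a 2-fold threshold and the replicate block (4536 at an unadjusted p under 0.05), and 25 to 406 without 1 array each. The 19 stage changes became 8 with only the arrays compared, 56 with array weights, 0 with a 2-fold threshold (279 at an unadjusted p under 0.05), 6 with the replicate block and 5 to 31 without 1 array each. The 4 heat shock genes called lower became 2 with array spread or quantile normalization, 1 with only the arrays compared or without VSC_EG 2 and 3 together, 0 with a 2-fold threshold (3 at an unadjusted p under 0.05) or the replicate block (10), and 1 to 6 without 1 array each; these alternatives were chosen after seeing the data. The other alternatives kept each count within 1.5 times.

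The 28 named calls were followed in 15 settings. These leave out the filter on dim loci and the 2-fold threshold, where no locus was called. The replicate block, 1 of the 15, also called 0 loci, so no call could be kept in all of them. HSP70 lost its call only with that block (limma adjusted p = 0.0592), and CRC lost its call in 2 of the 15 settings. Uncalled genes near 0 changed sign. JKD moved to 0.24 with array spread and LDOX to -0.0093 with centred arrays, and without 1 array each JKD ran from -0.28 to 0.34, LDOX from -0.20 to 0.38, LHW from -0.40 to 0.052 and TT4 from -0.31 to 0.035. The causes were not tested. Most rises lie near the floor of the arrays, where signal over background limits any statement on low levels.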
